A study of Mus musculus with 54 samples.

Results

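The genes that encode the subunits of the proteasome were followed in mouse T helper 17 (Th17) cells, a CD4+ lineage known for secreting interleukin 17. Members were taken by symbol alone: Psma, Psmb, Psmc and Psmd followed by a number, and Psme1 to Psme4. The rule found 43 genes among the 45802 rows of the table. The symbol rule uses no measured value, but earlier results of these data were known when members and gene lists were chosen. Another 12 rows whose symbols begin with Psm, such as pseudogenes and assembly factors, lie outside it.

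The cells were CD4+ CD25- T cells from spleen and lymph nodes of C57BL/6 mice, with a labelled purity of about 90%, cultured for 96 h under Th17 conditions. The vehicle DMSO, Arg C (argyrin C) at a labelled 60 mM or linezolid at 100 µM was present, and live CD4+ cells were sorted on day 4 by dilution of CellTrace Violet into cycle 2 (1 division), cycle 3 (2 divisions) and cycle 4 (3 or more divisions). Both are known to act on translation in mitochondria, linezolid by binding the ribosome and argyrins through an elongation factor. The unit of the Arg C dose is given as labelled, and the doses differ, so values with the drugs stand side by side. There were 2 experiments, 3 treatments and 3 cycles, each sequenced as 3 technical replicates that were averaged, giving 18 samples and n = 6 per treatment. The 3 cycles are sorted fractions of a culture, so a treatment has 2 independent units, and p-values over 6 samples may be smaller than the design warrants. Which mice went into which experiment is not in the labels. The prefixes of the sample names, which may be sequencing lanes, differ between the experiments. The comparisons ask how each drug changes RNA levels at a matched number of divisions.

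As background, the proteasome degrades proteins tagged with ubiquitin. Its 20S core is a barrel of alpha and beta rings, and beta subunits carry the cutting sites. The 19S cap consists of a base, whose ATPases (Psmc) unfold the substrate, and a lid that removes ubiquitin. In immune cells Psmb8, Psmb9 and Psmb10 can take the places of the constitutive catalytic subunits Psmb5, Psmb6 and Psmb7 to form the immunoproteasome, known for shaping peptides shown on MHC class I. Psme1 to Psme4 encode activators that open the core without the 19S cap.

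The samples held 24.27 to 36.91 M reads. Cd3e lay between 96.9 and 193.1 RPKM and Cd4 between 208.8 and 293.9 RPKM over all samples, while the T cell receptor gene Trac was listed at 0 in each. Ribosomal-protein genes took 17.19 to 18.72% of reads in genes in DMSO, 27.76 to 31.71% with Arg C and 20.9 to 27.4% with linezolid. The member genes together took 0.402 to 0.433%, 0.294 to 0.411% and 0.337 to 0.413%. RPKM is relative to each library, so a share gained by some genes lowers the values of the rest. Over the 11004 genes tested, log2 changes had a median of -0.47 for Arg C and -0.21 for linezolid, which median-ratio scaling sets close to 0. Directions below are therefore given on the deposited scale, with the result after that scaling added for many of those where it differs. In bulk RNA, fewer cells of a type and less RNA per cell cannot be told apart.

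Of the 43 members, 41 had at least 0.5 RPKM in at least 2 samples and were tested. Psma8, the testis-type alpha subunit, reached at most 0.0967 RPKM, and Psmb11, the thymus-specific beta subunit, was listed at 0 in all 18 samples. In DMSO the tested members spanned from Psmd9 at 4.33 ± 0.328 RPKM (SD, n = 6) to Psmb1 at 286.9 ± 12.9 RPKM. Psmd8, Psme1, Psma2 and Psmb8 followed Psmb1 in that order, with means of 171.7, 161.3, 150.7 and 140.1 RPKM. Psmd8, Psme1 and Psma2 overlapped with each other over DMSO samples, and Psma2 overlapped with Psmb8.

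With Arg C, 5 of 41 members rose and 28 fell on the deposited scale, against 16.5% and 70% of all tested genes (limma, adjusted p under 0.05). Their median log2 change was -0.42, close to the -0.47 of all genes. With linezolid 5 rose and 25 fell, against 21% and 54.5% of all genes, with a median of -0.23 beside -0.21. Those medians pool genes of all lengths. Classes of gene length, taken from shortest to longest, held 6, 26, 8 and 1 of the tested members. With Arg C, medians of all genes in these classes were 0.049, -0.34, -0.508 and -0.572, and those of members -0.441, -0.418, -0.303 and -1.517. Members thus lay lower than genes of like length with Arg C, except in the class with 8 members. In the same classes all genes were at -0.008, -0.213, -0.255 and -0.214 with linezolid, and members at -0.283, -0.199, -0.124 and -0.676. Differences within a length class were not tested. After median-ratio scaling Arg C gave 24 higher and 11 lower, beside 41.4% and 41.9% of all genes, and linezolid 16 higher and 13 lower, beside 36.9% and 37.1%. These shares are the background for each count by role or list below, on the same scale. Of the 28 that fell with Arg C, 11 fell in both scalings and 11 turned to a called rise; with linezolid 13 of 25 fell in both and 0 turned. Each drug had 5 members that rose in both scalings. The plot of changes by role shows that members of one complex spread over more than 2 log2 units with Arg C.

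**Figure D1:**
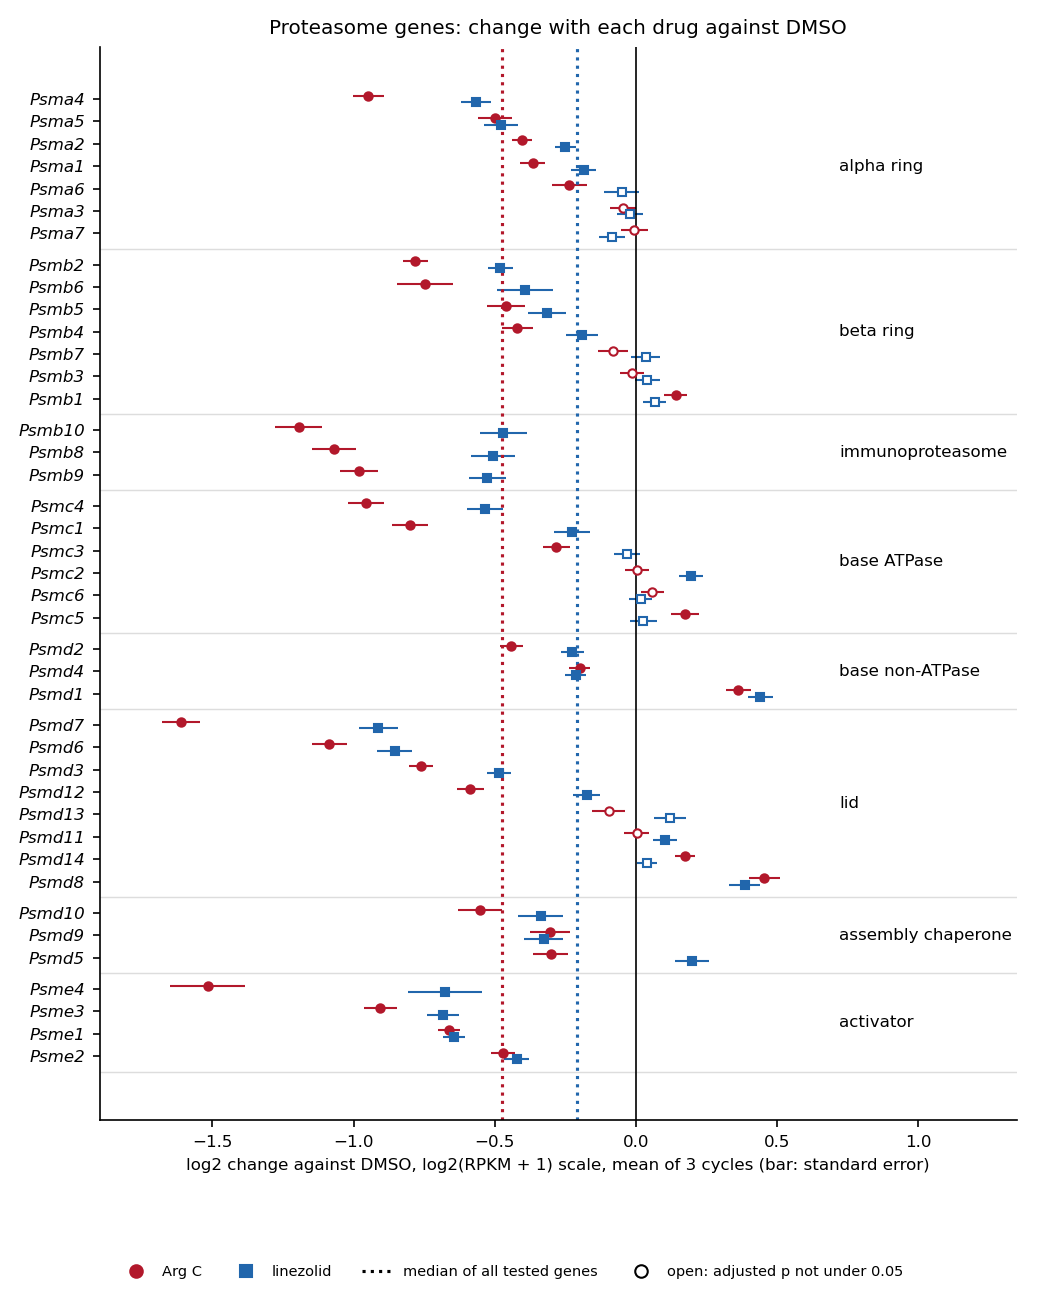
Log2 change of each tested proteasome gene against DMSO (x axis, log2(RPKM + 1) scale, mean of 3 cycles, bars are standard errors), grouped by role; red circles are Arg C and blue squares linezolid, filled where limma's adjusted p is under 0.05, and dotted lines mark the all-gene medians of -0.47 and -0.21. Psmd7 lies lowest at -1.61 and Psmd8 highest at 0.46 with Arg C.

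Among the 7 tested alpha-ring genes, which form the gate of the core, 5 fell with Arg C and 4 with linezolid, and 0 rose at an adjusted or unadjusted p under 0.05 (limma). These falls are near the 70% and 54.5% of all genes. After median-ratio scaling 5 rose and 1 fell with Arg C, and 3 rose and 2 fell with linezolid. Psma4 had a lowest, median and highest value of 74.1, 76.0 and 82.2 RPKM in DMSO, 31.3, 40.1 and 45.7 with Arg C and 48.6, 51.2 and 56.4 in linezolid. The 3 groups did not overlap. Its log2 change was -0.95 ± 0.05 (SE) with Arg C (limma adjusted p = 4.74e-09) and -0.57 ± 0.05 with linezolid (limma adjusted p = 1.04e-06), and it fell in both scalings. Psma7 stood at the other end: 73.2, 83.9 and 94.9 RPKM in DMSO, 56.3, 87.0 and 109.2 with Arg C and 56.8, 78.9 and 110.2 in linezolid. All 3 groups of Psma7 overlapped, and its change over all cycles was -0.01 ± 0.05 with Arg C (0.64 after median-ratio scaling).

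Of the 7 constitutive beta-ring genes, 4 fell and 1 rose with Arg C, while 4 fell and 0 rose with linezolid, with 0 rising at an unadjusted p under 0.05 too; all genes fell in 70% and 54.5%. Median-ratio scaling gave 5 higher and 1 lower, and 3 higher and 1 lower. Psmb2 was at 87.4, 90.1 and 100.1 RPKM in DMSO, 46.7, 54.4 and 57.4 with Arg C and 59.0, 64.8 and 71.7 in linezolid, with no overlap between groups. It changed by -0.78 ± 0.04 and -0.48 ± 0.04 and fell in both scalings. Psmb1, the most abundant member, was at 274.9, 283.7 and 302.2 RPKM in DMSO and 299.5, 318.1 and 334.1 in Arg C, ranges that overlap slightly. It rose by 0.14 ± 0.04 with Arg C (limma adjusted p = 0.0055) and was at 0.07 ± 0.04 with linezolid, which did not pass. After median-ratio scaling the linezolid value of Psmb1 was 0.345 and passed. The Arg C call of Psmb1 was lost when the 3 cycles were averaged first.

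Over all cycles the 3 immunoproteasome genes fell with both drugs, in both scalings, where 70% and 54.5% of all genes fell on the deposited scale. With Arg C each fell in every cycle. With linezolid none of the 3 passed in cycle 2 (-0.31 ± 0.14 for Psmb8, -0.13 ± 0.12 for Psmb9 and -0.24 ± 0.15 for Psmb10), and each fell in cycles 3 and 4 on the deposited scale. After scaling Psmb10 did not pass in cycle 3. In GRCm38.p6 Psmb8 lies at chr17:34197721-34201454 and Psmb9 at chr17:34181987-34187764, close to each other, and Psmb10 at chr8:105935735-105938444. Psmb8 was at 129.4, 140.7 and 152.1 RPKM in DMSO, 49.9, 67.5 and 86.6 with Arg C and 74.6, 102.4 and 129.5 in linezolid. Arg C lay below DMSO throughout, and the highest linezolid sample, cycle 2 of experiment 2, reached the DMSO range. The log2 change of Psmb8 was -1.07 ± 0.08 with Arg C (limma adjusted p = 3.92e-08) and -0.51 ± 0.08 with linezolid (limma adjusted p = 6.99e-05). Psmb9 was at 31.9, 35.2 and 37.9 RPKM in DMSO, 12.9, 17 and 20.9 with Arg C and 16.7, 23.9 and 39.8 in linezolid. With linezolid 1 sample, cycle 2 of experiment 2, lay above every DMSO sample and the other 5 lay below them all; the changes were -0.98 ± 0.07 and -0.53 ± 0.07. Psmb10 was at 11.1, 12.6 and 12.7 RPKM in DMSO, 3.73, 4.70 and 6.68 with Arg C and 6.76, 8.55 and 11.8 in linezolid, with changes of -1.20 ± 0.08 and -0.47 ± 0.08. Each of these 3 fell further with Arg C than with linezolid, with log2 differences of -0.56, -0.45 and -0.72 (limma), and after median-ratio scaling Psmb8 and Psmb10 still passed and Psmb9 did not. Psmb9 overlaps Tap1 on the opposite strand, Tap1 reached 106.7 RPKM and the strand of the libraries is not given in the sources used here, so the value of Psmb9 is uncertain.

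**Figure D2:**
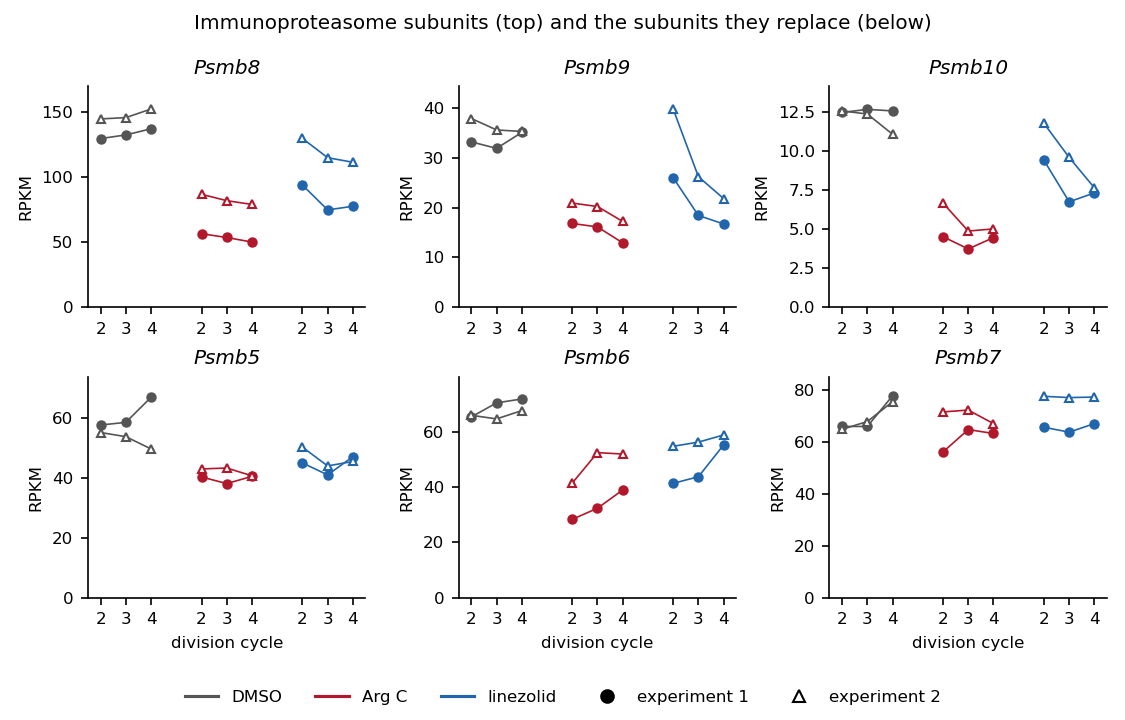
RPKM of Psmb8, Psmb9 and Psmb10 (top) and of Psmb5, Psmb6 and Psmb7 (below) by division cycle (x axis), for DMSO in grey, Arg C in red and linezolid in blue; filled circles are experiment 1, open triangles experiment 2, and lines join cycles of an experiment. All Arg C points of the top row lie under every DMSO point, while Psmb7 points of the 3 groups mix.

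The constitutive counterparts had smaller fitted changes on the deposited scale. Psmb5 was at 49.8, 56.6 and 67.1 RPKM in DMSO, 38.2, 40.7 and 43.4 with Arg C and 41.1, 45.4 and 50.4 in linezolid. Its change was -0.46 ± 0.07 with Arg C, which turned to 0.18 after median-ratio scaling, and -0.32 ± 0.07 with linezolid, which was -0.04 after scaling and did not pass. Psmb6 was at 64.6, 66.7 and 71.8 RPKM in DMSO, 28.3, 40.2 and 52.4 with Arg C and 41.3, 55.0 and 58.8 in linezolid, changes of -0.75 ± 0.10 and -0.39 ± 0.10. After median-ratio scaling Psmb6 was at -0.11 and -0.12, and neither passed. Psmb7 was at 64.7, 66.8 and 77.6 RPKM in DMSO, 56.0, 65.8 and 72.1 with Arg C and 63.6, 71.9 and 77.4 in linezolid. Its changes, -0.08 ± 0.05 and 0.03 ± 0.05, did not pass, and after median-ratio scaling it was called higher with both drugs. Pseudogenes of Psmb5, Psmb6 and Psmb7 are listed as rows of their own, so reads of these 3 genes may be split with them.

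A ratio of 2 genes in a sample does not depend on library scaling. Psmb8 made up 71.0% ± 3.03 (SD, n = 6) of the summed RPKM of Psmb8 and Psmb5 in DMSO, 61.6% ± 4.97 with Arg C and 68.2% ± 4.22 with linezolid. The log2 ratio of Psmb8 to Psmb5 changed by -0.61 ± 0.14 (SD, n = 6) for Arg C against DMSO, -0.19 ± 0.14 for linezolid against DMSO and -0.42 ± 0.09 for Arg C against linezolid, and was lower in 6 of 6 pairs each time. Psmb10 made up 15.1% ± 1.42 of Psmb10 and Psmb7 in DMSO, 6.90% ± 1.06 with Arg C and 10.9% ± 1.70 with linezolid. That log2 ratio changed by -1.28 ± 0.28, -0.55 ± 0.18 and -0.72 ± 0.19, again lower in 6 of 6 pairs. These 6 results had p = 0.0312 in a two-sided exact sign-flip permutation test, the smallest that 6 pairs allow, and 0.0469 adjusted over the 9 ratio comparisons. The pairs are cycles of 2 experiments and so are not independent. With technical replicate 1 left out, all 6 missed the threshold at an adjusted p of 0.0562 or, for Psmb8 to Psmb5 with linezolid, 0.1875 in the same exact test. Apart from that linezolid ratio, the results stayed at the smallest p that 6 pairs allow. Their adjusted p rose because fewer of the 9 comparisons reached it. The Psmb9 to Psmb6 ratio did not pass, with 4 of 6 pairs lower and log2 changes of -0.26, -0.15 and -0.11. Psmb9 made up 34.0% of its pair in DMSO, 30.3% in Arg C and 32.1% in linezolid, and in each treatment and experiment the share was lower in cycle 4 than in cycle 2.

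**Figure D3:**
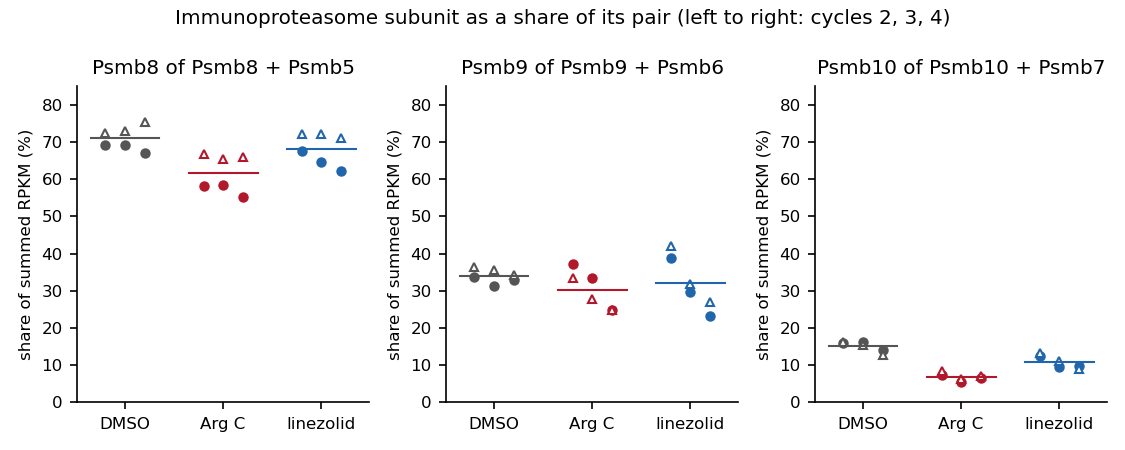
Share of each immunoproteasome subunit in the summed RPKM of itself and its constitutive counterpart (y axis, %), by treatment; circles are experiment 1, triangles experiment 2, cycles 2, 3 and 4 run from left to right, and lines are means of 6 samples. The Psmb10 share falls from 15.1% in DMSO to 6.90% with Arg C, without overlap.

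Genes of antigen-presenting cells were read beside these values. The summed RPKM of 6 dendritic-cell markers was 75.6 to 112.2 in DMSO, 22.7 to 36.1 with Arg C and 25 to 29.9 in linezolid. H2-Ab1 held most of it in DMSO at 66.5 to 97.1 RPKM. Its values were 8.31 to 11.3 RPKM with Arg C and 10.7 to 13.8 in linezolid. The defining markers Itgax and Flt3 stayed at or below 0.0151 and 0.0966 RPKM in every sample. Of the other 3, Cd74 was at 7.33 to 12.7 RPKM in DMSO and 10.8 to 23.7 with Arg C, H2-Eb1 at 1.10 to 4.63 over all samples, and H2-Aa reached 1.76 in DMSO, 0.233 with Arg C and 0.578 in linezolid. The 4 myeloid markers summed to 9.61 to 17.8 RPKM in DMSO, 11.0 to 17.4 with Arg C and 8.35 to 14.7 in linezolid. Cd68 held most of that at 7.73 to 17.3 RPKM, Itgam reached 2.32, and Csf1r and Lyz2 were at most 0.036 and 0.0593 RPKM. The 4 B-cell markers summed to 0.658 to 3.43 RPKM in DMSO, 0.209 to 0.652 with Arg C and 0.31 to 2.02 in linezolid. Among them Cd79b had medians of 1.54, 0.449 and 0.775 RPKM. The part of such transcripts in the immunoproteasome result was not tested.

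Upstream sequences are shown for Psmb10, Psmb5 and Psmb6, the only immunoproteasome or counterpart genes with a window that could be printed. None of these is the counterpart of another, so no pair is compared. Each run is the exon-free part of the 250 bases before the RefSeq start (GRCm38.p6), with exons of any GENCODE M21 transcript removed, and capitals mark searched motifs, read on either strand. The windows of Psmb8 and Psmb9 lie wholly in annotated exons and are not printed, and Psmb7 has no promoter entry. The motifs, sought on both strands over the full 250 bases, were TGACNNNGC (antioxidant response element core), CCAAT, TTCNNNGAA (STAT), GAAANNGAA (interferon response core) and CCGGAAG (ETS).
Psmb10 (chr8:105938445-105938642, minus strand): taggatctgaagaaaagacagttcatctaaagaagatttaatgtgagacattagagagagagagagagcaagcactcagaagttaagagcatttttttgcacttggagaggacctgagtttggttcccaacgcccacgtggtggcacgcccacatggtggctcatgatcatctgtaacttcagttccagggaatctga
Psmb5 (chr14:54618023-54618245, minus strand): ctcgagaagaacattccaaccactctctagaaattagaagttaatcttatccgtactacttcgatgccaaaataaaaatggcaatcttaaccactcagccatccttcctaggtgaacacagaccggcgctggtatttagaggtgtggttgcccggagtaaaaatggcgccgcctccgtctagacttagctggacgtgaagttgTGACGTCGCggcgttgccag
Psmb6 (chr11:70525107-70525356, plus strand): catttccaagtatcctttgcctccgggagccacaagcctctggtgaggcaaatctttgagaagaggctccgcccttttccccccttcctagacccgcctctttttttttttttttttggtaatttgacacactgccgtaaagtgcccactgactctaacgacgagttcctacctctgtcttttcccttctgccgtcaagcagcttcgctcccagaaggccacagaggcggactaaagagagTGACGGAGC
Psmb5 and Psmb6 each held a TGACNNNGC match and the printed run of Psmb10 held none of the 5 motifs. A promoter was found for 36 members. TGACNNNGC lay in 5 of them, 13.9% against 11.5% of 27025 genes, CCAAT in 38.9% against 37.5%, TTCNNNGAA in 2.78% against 8.13% and GAAANNGAA in 8.33% against 8.18%. TTCNNNGAA matched in 1 member, Psmb8, and Psmb9 held a CCAAT match, both in windows not printed here.
CCGGAAG lay in 11 members or 30.6%, against 7.83% of the 27025 genes. The members were Psma6, Psmc1, Psmc2, Psmc6, Psmd2, Psmd4, Psmd6, Psmd11, Psmd12, Psme3 and Psme4. The 27025 genes include ones that were not tested here, and the share among tested genes alone was not computed. A match is a description of letters and not a bound site.

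From that group Psmd2, Psmd4 and Psme3 are printed, a choice made after their values were seen: the Arg C effect of Psmd2 and Psmd4 changed with cycle, as given below, while the same difference for Psme3, 0.24 ± 0.14, did not pass in limma.
Psmd2 (chr16:20651402-20651651, plus strand): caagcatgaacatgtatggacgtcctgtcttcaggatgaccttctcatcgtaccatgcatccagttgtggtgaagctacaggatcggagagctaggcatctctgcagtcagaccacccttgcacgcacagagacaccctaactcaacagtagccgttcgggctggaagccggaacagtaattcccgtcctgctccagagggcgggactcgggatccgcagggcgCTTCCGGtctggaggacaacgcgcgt
Psmd4 (chr3:95042615-95042864, minus strand): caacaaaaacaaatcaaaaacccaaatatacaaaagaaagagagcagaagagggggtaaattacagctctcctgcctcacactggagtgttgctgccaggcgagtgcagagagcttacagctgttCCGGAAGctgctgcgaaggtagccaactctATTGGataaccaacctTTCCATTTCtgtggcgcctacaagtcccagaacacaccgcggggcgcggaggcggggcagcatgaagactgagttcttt
Psme3 (chr11:101315963-101316212, plus strand): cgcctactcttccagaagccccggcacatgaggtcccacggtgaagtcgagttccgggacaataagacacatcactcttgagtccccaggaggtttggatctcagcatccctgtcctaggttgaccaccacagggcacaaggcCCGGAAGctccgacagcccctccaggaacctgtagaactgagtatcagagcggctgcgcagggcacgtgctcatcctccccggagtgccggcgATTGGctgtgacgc

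The base ATPases split. Of 6 Psmc genes, 3 fell and 1 rose with Arg C, and 2 fell and 1 rose with linezolid; after median-ratio scaling 2 fell and 4 rose, and 1 fell and 4 rose. Psmc4 was at 30.2, 31.5 and 36.6 RPKM in DMSO, 12.1, 16.2 and 20.4 with Arg C and 19.1, 22.0 and 24.9 in linezolid. Its 3 groups were ordered with little overlap between the drugs and none with DMSO, and it changed by -0.96 ± 0.06 and -0.54 ± 0.06 and fell in both scalings. Psmc5 was at 30.0, 32.4 and 37.9 RPKM in DMSO, 25.8, 40.0 and 49.3 with Arg C and 24.1, 34.6 and 46.3 in linezolid, wider in the drug groups than in DMSO. It rose by 0.17 ± 0.05 with Arg C (limma adjusted p = 0.00404) in 4 of 6 pairs, and was at 0.03 ± 0.05 with linezolid. After median-ratio scaling the linezolid value of Psmc5 was 0.297 and passed. The Arg C rise of Psmc5 missed the threshold in each experiment alone and with the 3 cycles averaged.

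The 3 non-ATPase base genes encode the scaffolds Psmd1 and Psmd2 and the ubiquitin receptor Psmd4. Psmd1 was at 17.8, 20.6 and 22.7 RPKM in DMSO, 18.1, 27.7 and 35.9 with Arg C and 21.0, 29.1 and 35.6 in linezolid. Only the cycle 2 samples of the drug groups lay within the DMSO range, and Psmd1 rose with both drugs in both scalings, by 0.36 ± 0.04 and 0.44 ± 0.04. Psmd2 was at 63.0, 69.2 and 70.6 RPKM in DMSO, 39.1, 51.1 and 59.5 with Arg C and 53.3, 56.3 and 63.8 in linezolid. It changed by -0.44 ± 0.04 and -0.23 ± 0.04, and turned to 0.20, which passed, and 0.05, which did not, after median-ratio scaling. The linezolid call was lost in experiment 1 alone.

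With Arg C the lid held the lowest and the highest change of all 41 members; with linezolid Psmd7 was again lowest and Psmd1, of the base, highest. Of 8 lid genes, 4 fell and 2 rose with each drug, and after median-ratio scaling 4 rose and 2 fell with Arg C and 4 rose and 3 fell with linezolid. Psmd7, which encodes the partner of the deubiquitinase Psmd14, was at 37.2, 40.8 and 42.3 RPKM in DMSO, 8.94, 12.9 and 16.4 with Arg C and 18.5, 20.5 and 25.1 in linezolid. The groups did not overlap. It fell by 1.61 ± 0.07 with Arg C (limma adjusted p = 3.62e-10), 3.06-fold lower, and by 0.91 ± 0.07 with linezolid. Within the lid Psmd6, chosen after its values were seen, followed at -1.09 ± 0.06 and -0.86 ± 0.06. Psmd8 went the other way, with 161.0, 167.8 and 188.6 RPKM in DMSO, 193.6, 243.3 and 275.8 with Arg C and 186.5, 228.3 and 273.3 in linezolid. It rose by 0.46 ± 0.06 with Arg C and 0.39 ± 0.06 with linezolid, in 6 of 6 pairs with each drug and in both scalings. All Arg C samples were above DMSO, and linezolid overlapped with DMSO by its lowest sample.

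Psmd5, Psmd9 and Psmd10 encode chaperones that help to assemble the base. Of the 41 tested members, Psmd5 alone was called in opposite directions with the drugs on the deposited scale: -0.30 ± 0.06 with Arg C and 0.20 ± 0.06 with linezolid. Its values were 16.9, 19.4 and 20.9 RPKM in DMSO, 12.5, 15.7 and 18.6 with Arg C and 19.7, 22.0 and 25.8 in linezolid. After median-ratio scaling Psmd5 rose with Arg C too, by 0.31, and in experiment 2 alone the Arg C change was -0.15, which did not pass in limma. Its rise with linezolid did not pass in experiment 1 alone or with the 3 cycles averaged. Psmd10 was at 12.6, 14.2 and 18.7 RPKM in DMSO, 8.51, 9.67 and 10.9 with Arg C and 10.1, 11.4 and 12.4 in linezolid. It fell by 0.55 ± 0.08 with Arg C and 0.34 ± 0.08 with linezolid, and its values after median-ratio scaling, 0.05 and -0.08, did not pass.

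All 4 activators fell with both drugs on the deposited scale; after median-ratio scaling 2 fell and Psme2 rose with Arg C, and 3 fell with linezolid. Psme4, which encodes the nuclear activator PA200, was at 12.0, 13.5 and 15 RPKM in DMSO, 3.51, 4.00 and 5.20 with Arg C and 5.09, 8.94 and 11.5 in linezolid. Its groups of DMSO and drugs did not overlap, and it changed by -1.52 ± 0.13 and -0.68 ± 0.13. Psme3, the gene of PA28 gamma, was at 21.5, 22.1 and 26.1 RPKM in DMSO, 10.3, 11.8 and 13.3 with Arg C and 12.5, 13.8 and 15.2 in linezolid, with changes of -0.91 ± 0.06 and -0.68 ± 0.06. Psme1, PA28 alpha, was at 150.8, 162.7 and 167.8 RPKM in DMSO, 93.8, 102.9 and 106.4 with Arg C and 96.7, 103.6 and 110.0 in linezolid. Its changes were -0.66 ± 0.04 and -0.64 ± 0.04, and the drugs differed by -0.02 ± 0.04. After median-ratio scaling the Arg C change of Psme1 was -0.02 and did not pass, that of linezolid was -0.36, and the difference of 0.35 between the drugs passed. Psme2, PA28 beta, was at 87.3, 89.4 and 90.9 RPKM in DMSO, 47.1, 67.8 and 79.1 with Arg C and 56.9, 68.1 and 79.6 in linezolid. The values of Psme2 spread widely in the drug groups and narrowly in DMSO, and its changes were -0.47 ± 0.04 and -0.42 ± 0.04. After scaling they were 0.17, which passed, and -0.15, which did not. A near copy, Psme2b, is listed separately, so reads may be split between them.

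**Figure D4:**
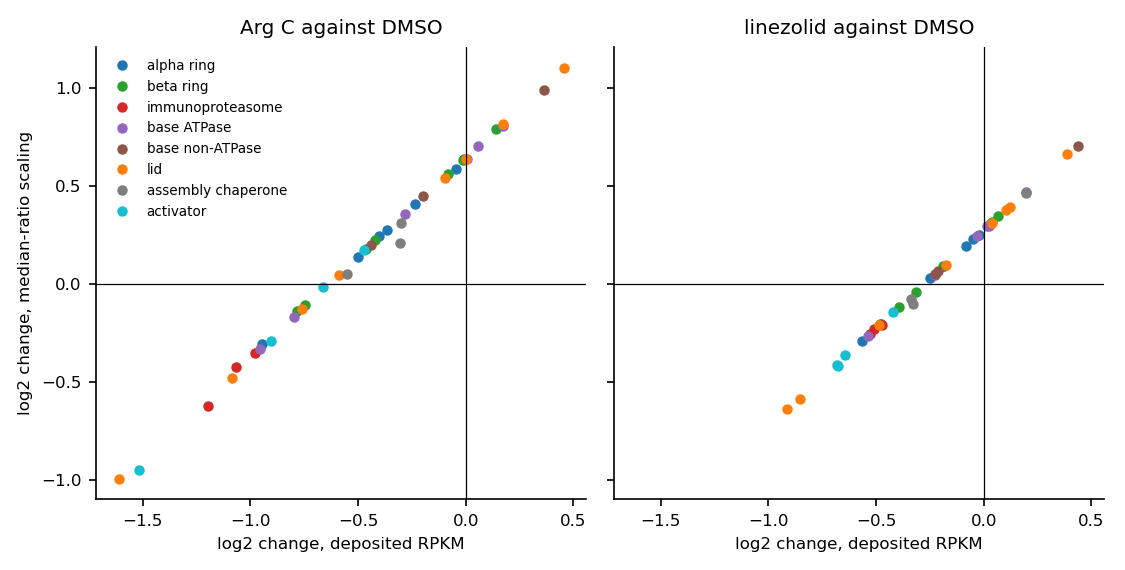
Log2 change of each tested member on the deposited RPKM scale (x axis) against that after median-ratio scaling (y axis), for Arg C and linezolid, coloured by role. Points above 0 on the y axis and below 0 on the x axis turn with the scaling, while the 3 immunoproteasome genes lie below 0 on both axes.

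Arg C against linezolid gave 2 members higher and 24 lower, beside 7.64% and 59.8% of all genes, with a median of -0.19 against -0.23. After median-ratio scaling 26 were higher and 6 lower, beside 32.6% and 29.2% of all genes. The 2 that were higher in both scalings were Psmd14 at 0.14 ± 0.04 and Psmc5 at 0.15 ± 0.05, and neither call held with the 3 cycles averaged or in experiment 1 alone. The 6 lower in both were Psme4, Psmb10, Psmd7, Psmc1, Psmb8 and Psmd5, from -0.84 ± 0.13 for Psme4 to -0.50 ± 0.06 for Psmd5. These labelled doses differ, so the differences are between these treatments and not between potencies.

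The division cycle changed few members in DMSO. In cycle 4 against cycle 2, 3 rose and 0 fell in limma, beside 4.45% and 3.22% of all genes, and limma-voom also called 3 and 0. At an unadjusted p under 0.05 there were 12 higher and 0 lower in limma, and 10 and 0 in limma-voom. Shares of all genes at an unadjusted p were not computed, here or below, so such counts have no background. Psma7 rose by 0.33 ± 0.08, Psmd14 by 0.33 and Psmd1 by 0.31, and none of these passed after median-ratio scaling. Within Arg C, 25 members were higher and 0 lower in cycle 4 than in cycle 2, beside 2017 and 1503 of 11004 genes. Within linezolid 14 were higher and 2 lower, beside 1647 and 1970. Median-ratio scaling gave 22 and 1 within Arg C, beside 2083 and 2120, and 19 and 2 within linezolid, beside 1871 and 1989.

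The effect of Arg C changed with cycle for 8 members, all of them upward, beside 4.25% of all genes upward and 3.66% downward, and at an unadjusted p under 0.05 there were 13 upward and 0 downward (limma; limma-voom called 8 and 0). The count was 3 without the experiment block, 2 with the groups of the contrast alone and 7 after median-ratio scaling, 6 of them shared. Of all 11004 genes, 84, 65 and 451 were upward in these fits. All 3 base non-ATPase genes were among the 8, with Psmc2, Psmc5, Psma7, Psmd12 and Psme2; Psmd4 and Psma7 did not pass after scaling. Psme2 was at 47.1 and 52.2 RPKM in cycle 2 of Arg C, 64.7 and 70.9 in cycle 3 and 77.8 and 79.1 in cycle 4 (experiments 1 and 2), against 87.3 to 90.9 in DMSO. Its Arg C change was -0.86 ± 0.07 in cycle 2 and -0.17 ± 0.07 in cycle 4, a difference of 0.70 ± 0.10 (limma adjusted p = 0.00413). The cycle 4 change of Psme2 did not pass, and after median-ratio scaling Psme2 was called higher in that cycle. Psmc5 was lower in cycle 2 by 0.22 ± 0.08 and higher in cycle 4 by 0.44 ± 0.08, a difference of 0.66 ± 0.12. After median-ratio scaling its fall in cycle 2 turned to a called rise. With linezolid 4 members changed upward with cycle and 1 downward, beside 2.05% and 3.34%, and median-ratio scaling left 0 upward in limma, with 8 at an unadjusted p under 0.05, and limma-voom called 0 upward. Psma7, Psmc5, Psme2 and Psmd4 were the 4, by 0.49, 0.50, 0.44 and 0.38. Psmb9 went the other way, with a linezolid change of -0.13 ± 0.12 in cycle 2 and -0.85 ± 0.12 in cycle 4, a difference of -0.72 ± 0.16 (limma adjusted p = 0.0287). Each such difference rests on 2 experiments.

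**Figure D5:**
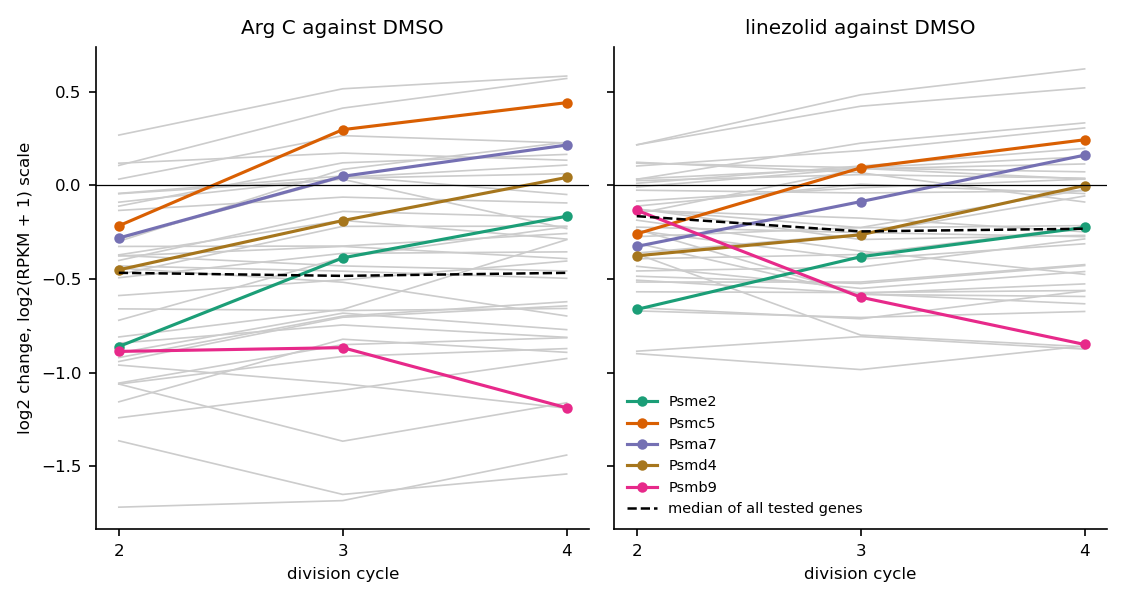
Log2 change against DMSO (y axis) in cycles 2, 3 and 4 (x axis) for every tested member, with Arg C left and linezolid right; 5 members with a change of effect are coloured, the others are grey, and the dashed line is the median of all tested genes. With Arg C, Psme2 runs from -0.86 to -0.17 and Psmb9 lies at -0.87 or lower in each cycle.

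The experiments were compared within drug. The median member change with Arg C was -0.50 in experiment 1 and -0.32 in experiment 2, beside -0.55 and -0.39 for all genes. With linezolid it was -0.26 and -0.18, beside -0.31 and -0.12. The sign was the same in both experiments for 34 of 41 members with Arg C and 35 of 41 with linezolid. Psmb8 changed by -1.31 and -0.83 with Arg C, Psmb9 by -1.09 and -0.87, and Psmb10 by -1.38 and -1.01, so each fell in both. The linezolid change of Psme4 was -1.09 in experiment 1 and -0.26 in experiment 2.

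Other genes of the pathway were taken from lists. As these lists were chosen with results known, their counts are a description, to be read beside the 16.5% of all genes that rose and 70% that fell with Arg C, and 21% and 54.5% with linezolid. Of the 5 assembly genes, 4 fell and 1 rose with Arg C and 4 fell with linezolid; after median-ratio scaling 2 fell and 2 rose with Arg C and 2 fell and 1 rose with linezolid. Psmg4 rose by 0.37 ± 0.05 and Pomp, the assembly chaperone of the core, fell by 0.28 ± 0.03 and rose after scaling. Among 8 associated and inhibitor genes 5 fell and 3 rose with Arg C, and 2 fell and 2 rose with linezolid; scaling gave 3 and 5, and 2 and 4. The ubiquitin receptor gene Adrm1 fell in both scalings with both drugs, by 0.88 ± 0.04 and 0.55 ± 0.04. Of 9 shuttle genes, 7 fell and 1 rose with Arg C, and 5 fell and 3 rose with linezolid, which scaling turned to 4 and 4, and 2 and 4. All 5 genes around p97, the unfolding ATPase Vcp, fell with Arg C, while 3 fell and 1 rose with linezolid; after scaling 2 fell and 2 rose, and 0 fell and 2 rose. Of 6 ubiquitin and E1 genes, 3 fell and 3 rose with Arg C and 2 fell and 2 rose with linezolid; after scaling 0 fell and 4 rose, and 1 fell and 3 rose. Rps27a, which encodes ubiquitin joined to a ribosomal protein, rose by 0.78 with Arg C.

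Of 8 factors of proteasome genes, 6 fell and 1 rose with Arg C and 3 fell and 3 rose with linezolid; after scaling 4 fell and 4 rose, and 2 fell and 5 rose. Nfe2l1, the gene of NRF1, a factor known to raise proteasome genes when the proteasome is inhibited, rose from a mean of 23.6 RPKM to 37.5 with Arg C and 49.9 with linezolid, changes of 0.63 ± 0.08 and 1.04 ± 0.08 that kept their direction in both scalings. Nfyb, a subunit of the factor that binds CCAAT, fell by 1.74 ± 0.07 and 1.33 ± 0.07, and Stat3 by 1.07 and 0.88, in both scalings. Of 8 interferon and antigen-processing genes, 6 fell and 1 rose with Arg C and 2 fell and 3 rose with linezolid; after scaling 3 fell and 5 rose, and 2 fell and 5 rose. Erap1, a peptide-trimming enzyme, fell by 1.37 and 0.75 on the log2 scale, in both scalings. Irf1, at means of 22.7, 23.4 and 22.7 RPKM, did not pass on the deposited scale and was called higher after scaling. Tap1 changed by -0.24 ± 0.06 with Arg C, turning to 0.41 after scaling, and 0.26 ± 0.06 with linezolid, and B2m, the light chain of MHC class I, rose by 0.19 and 0.42.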

How the data were processed

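RNA levels came from 1 deposited table covering 45802 genes in 54 libraries, which states no unit. The unit of the deposited values was taken to be RPKM (read counts that the authors divided by gene length and depth), since they resolved into whole reads (tolerance 0.02 of a read) in each of the 19284 genes above 0. The depth was set from single-exon genes: of 472 checked, the GENCODE length of 74 gave the same library size within 200 reads, and the next largest such cluster held 3. The others did not match on their GENCODE length, so general agreement of the gene models with that annotation is not shown. The submitters' processing notes name CASAVA and GRCm38.p5. For the aligner, counting tool, annotation and strand, the entry is "not given in the sources used here". Libraries held 8.0 to 12.5 M reads. Technical replicates spread 1.04 to 1.112 times as much as counting error, and the 3 were averaged, giving 18 samples.

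The model, from limma 3.58.1 in R 4.3.3 (a linear fit with a mean-dependent prior variance), used log2(RPKM + 1), a coefficient for each combination of drug and cycle, and a block for experiment, leaving 8 residual degrees of freedom. It covered 11004 genes that reached 0.5 RPKM in 2 or more samples. Calls are those with Benjamini-Hochberg adjusted p under 0.05 across these genes, and fold changes of genes at a few RPKM are understated. Ratios were tested by an exact sign-flip permutation test. The fit was tested on simulated data. Coordinates, promoters (RefSeq) and exons (GENCODE M21) are of GRCm38.p6, and 7 members had no promoter entry. Members named by rule were the immunoproteasome subunits and their counterparts, the activators, the highest and lowest Arg C change in each role, any called in opposite directions and any not tested. Members and gene lists were chosen with earlier results of these data known. Alternatives were 2 other scalings, a pseudocount of 0.1, other filters and fits, and libraries or experiments left out. Some genes of these lists are not reported here by name.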

Additional observations from a re-analysis of the deposited data

Results flagged for a closer look

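In DMSO, the lowest Psmb10 sample, cycle 4 of experiment 2, was 11.1 RPKM and lay apart from the other 5. The highest Psmc4 sample was 36.6 RPKM and the highest Psmb2 sample 100.1 RPKM, both from cycle 4 of experiment 1. Of 66 groups of 6 samples examined, 3 held such a sample, and chance gives about 1 in 20.

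The Arg C effect differed between cycles 4 and 2 for 8 members in limma's interaction test. The log2 differences were 0.465 for Psmd1, 0.496 for Psma7, 0.493 for Psmd4, 0.529 for Psmc2, 0.657 for Psmc5, 0.518 for Psmd12, 0.695 for Psme2 and 0.499 for Psmd2. With linezolid they were 0.487 for Psma7, 0.375 for Psmd4, 0.502 for Psmc5, 0.438 for Psme2 and -0.715 for Psmb9. Psmd12 and Psmc2 were named after their values were seen. The fit takes cycles as independent, and with 2 experiments each difference rests on 4 pairs of samples.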

How the results depend on the processing

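Median-ratio scaling gave 24 members higher and 11 lower with Arg C (median log2 change 0.21), 16 and 13 with linezolid (0.0495), and 26 and 6 for Arg C against linezolid (0.17), with 0 higher for DMSO cycle 4 against cycle 2 and 0 upward for the linezolid effect by cycle. It turned the Arg C values of Psmb5 (0.18), Psmb7 (0.56), Psme2 (0.17), Psma7 (0.64), Psmd5 (0.31), Psmd10 (0.048) and Psmd2 (0.20), and the linezolid values of Psma7 (0.19) and Psmd2 (0.05). Without mitochondrial and ribosomal-protein genes 12 members were higher with Arg C (median -0.20), 12 with linezolid (-0.13), and 7 higher and 14 lower for Arg C against linezolid (-0.0729), and the Arg C values of Psmb7 and Psma7 were 0.14 and 0.21. Of all 10918 genes in that fit, 2521 were higher with Arg C, and 1437 higher and 5427 lower for Arg C against linezolid.

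With the 3 cycles averaged first, 2 members were higher with Arg C, 2 with linezolid, and 0 higher and 12 lower between the drugs. Of all 11004 genes these were 1354, 1500, 188 and 3862, in that order. Without the experiment block, 3 members were higher with linezolid and 1 in DMSO cycle 4 against cycle 2. The effect by cycle then gave 3 upward for Arg C and 0 upward and 0 downward for linezolid. Of all 11004 genes these were 2032, 156, 84, 0 and 0. With the groups of the contrast alone, 8 members were higher for DMSO by cycle. The effect by cycle then gave 2 upward for Arg C and 0 and 0 for linezolid. Of all genes these were 1333, 65, 0 and 0. The linezolid effect by cycle had 1 member upward in limma without trend, 0 with limma-voom on recovered reads, and 0 downward with no filter. Of all genes these were 193 and 141 of 11004, and 260 of 19284. Without experiment 2, 0 members were higher in Arg C against linezolid, beside 401 of 11004 genes.

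Same-numbered libraries did not deviate together (mean r of 0.001 and 0.003). What they share beyond a prefix of their sample names is not in the labels. The fit of 54 libraries with a replicate block treats technical replicates as samples. With that block 5 members were higher for Arg C against linezolid, 20 higher and 2 lower for DMSO by cycle, 21 upward and 2 downward for the Arg C effect by cycle, and 12 and 5 for linezolid. Of all 11004 genes, 1289 were higher for Arg C against linezolid, and 2631 higher and 1848 lower for DMSO by cycle. The effect by cycle gave 2242 upward and 2285 downward of all genes for Arg C, and 1795 and 3011 for linezolid.

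Leaving out each technical replicate gave 5 to 5 higher and 28 to 28 lower with Arg C (median -0.42 to -0.42), 4 to 5 and 25 to 25 with linezolid (-0.23 to -0.22), and 2 to 2 and 24 to 24 between the drugs (-0.20 to -0.18). It gave 2 to 4 higher for DMSO by cycle, with 0 to 0 lower, 8 to 8 upward and 0 to 0 downward for the Arg C effect by cycle, and 2 to 4 upward and 0 to 1 downward for linezolid. The Psmb8 to Psmb5 ratio ranged from -0.616 to -0.600 (Arg C), -0.207 to -0.169 (linezolid) and -0.446 to -0.408 (between them). The Psmb10 to Psmb7 ratio ranged from -1.327 to -1.251, -0.567 to -0.527 and -0.760 to -0.685, and these missed the threshold without replicate 1, as did those of Psmb8. The Psmb9 to Psmb6 ratio ranged from -0.271 to -0.250, -0.178 to -0.119 and -0.132 to -0.092. In 1 experiment alone, with 3 pairs, no ratio can pass, and Psmb9 to Psmb6 for Arg C against linezolid was 0.096 without experiment 2.

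Of 44 values of named members, all 44 kept their direction and call with a pseudocount of 0.1, a stricter filter, no filter, the groups of the contrast alone, limma without trend, limma-voom and each replicate left out. Under median-ratio scaling 26 did, with 9 reversed, 6 no longer called (Psmb6, with each drug, Psme1 with Arg C, and Psmb5, Psme2 and Psmd10 with linezolid) and 3 newly called. The number was 38 without mitochondrial and ribosomal-protein genes, 41 with cycles averaged, 41 with the replicate block, 43 without the experiment block, 42 without experiment 1 and 39 without experiment 2. Fits of cycle contrasts in 1 experiment were not run, as no residual degrees of freedom remain, and averaging the cycles applies to the drug contrasts alone.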
